A study of Mus musculus with 20 samples.

Results

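The genes described here are 10 feedback inhibitors of Ras and ERK signaling, the phosphatase genes Dusp4, Dusp5, Dusp6 and Dusp7, the Sprouty genes Spry1, Spry2 and Spry4, the Spred genes Spred1 and Spred2, and Rasa1. They were chosen by name, as the rows of the count table that carry these symbols, and all 10 were found among its 43346 genes and passed the filter on low counts that left 18883 genes for testing. Expression was measured by RNAseq in 20 breast tumors, each from a different female [BALB/c-neuT x FVB/J] F1 mouse. Every tumor carried the rat neu oncogene (neuT) as a transgene inherited from the BALB/c-neuT father, with a wildtype FVB/J mother, and the labels give no other treatment or genotype. No normal breast tissue was analysed here, so values show how tumors differ from each other. The sample titles put 9 tumors in a Lo group and 11 in a Hi group, without a stated meaning, and tumors are named by that label and number (Lo_4, Hi_10). Ages are not given in the labels, and each small tumor piece was bulk tissue in which fewer cells of a type and less RNA per cell cannot be told apart.

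Receptors of the ErbB family pass their signal through Ras, Raf and MEK to the ERK kinases, which enter the nucleus and switch on target genes. Among those targets are genes whose proteins dampen the same cascade. Dual-specificity phosphatases remove the activating phosphates of ERK, with DUSP6 and DUSP7 in the cytoplasm and DUSP4 and DUSP5 in the nucleus. Sprouty proteins interrupt the signal between the receptor and Raf, Spred proteins bring the GTPase-activating protein neurofibromin to Ras, and RASA1 (p120 RasGAP) speeds the return of Ras to its inactive form. ERBB2 is the receptor that the rat neu oncogene encodes, and its mouse gene Erbb2 is the gene against which the inhibitors were set. Reads of the rat transgene that map to mouse Erbb2 cannot be told apart from reads of the mouse gene.

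The sequences of 4 promoters are shown, those of Dusp5, Dusp6, Spry1 and Spry2. The last 3 belong to the pairs with the highest r described below, Dusp4 with Dusp6 and Spry1 with Spry2. No promoter was available for Dusp4. Dusp5 is a phosphatase that did not vary with Dusp6. Each is the 250 bases before the start of the gene in RefSeq (GRCm38.p6, the mm10 build), with matches to the searched motifs in capitals. They lie at chr19:53528895-53529144 (plus strand, Dusp5), chr10:99262981-99263230 (plus strand, Dusp6), chr3:37639697-37639946 (plus strand, Spry1) and chr14:105896820-105897069 (minus strand, Spry2).
Dusp5: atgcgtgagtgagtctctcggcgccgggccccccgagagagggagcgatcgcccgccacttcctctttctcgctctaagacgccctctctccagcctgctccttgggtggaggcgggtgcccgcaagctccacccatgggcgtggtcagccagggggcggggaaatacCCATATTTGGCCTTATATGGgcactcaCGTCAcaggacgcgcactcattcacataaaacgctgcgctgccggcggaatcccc
Dusp6: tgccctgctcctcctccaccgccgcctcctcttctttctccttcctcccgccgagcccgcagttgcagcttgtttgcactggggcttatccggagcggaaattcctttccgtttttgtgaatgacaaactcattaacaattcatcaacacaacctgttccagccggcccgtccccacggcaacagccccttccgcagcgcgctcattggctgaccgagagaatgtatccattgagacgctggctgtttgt
Spry1: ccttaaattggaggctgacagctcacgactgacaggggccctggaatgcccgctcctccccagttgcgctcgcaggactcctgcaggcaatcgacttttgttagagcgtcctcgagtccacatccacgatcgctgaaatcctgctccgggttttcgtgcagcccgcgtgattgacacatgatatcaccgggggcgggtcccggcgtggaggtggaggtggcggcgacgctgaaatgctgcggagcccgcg
Spry2: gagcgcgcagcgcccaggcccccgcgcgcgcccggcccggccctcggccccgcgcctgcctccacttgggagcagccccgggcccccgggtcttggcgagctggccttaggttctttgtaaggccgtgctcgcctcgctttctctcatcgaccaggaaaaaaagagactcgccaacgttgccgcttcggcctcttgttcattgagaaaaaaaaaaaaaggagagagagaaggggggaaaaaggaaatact
Both strands were searched for the cAMP response element (TGACGTCA), its shorter core (TGACG), the AP-1 site (TGANTCA), an ETS site (CCGGAAG) and the CArG box, the serum response factor site of immediate-early genes. The Dusp5 window holds a pair of adjoining CArG boxes, 82 and 72 bases before the start and printed as 1 run of capitals, and the shorter core 55 bases before it. Of 32851 promoter windows of this length, 1.47% hold a CArG box and 17.8% hold the shorter core. The windows of Dusp6, Spry1, Spry2, Dusp7 and Spred1 hold none of the searched letters. The Spred2 window holds the shorter core 51 bases before the start, the Rasa1 window an ETS site at 55 bases (6.91% of windows hold one), and the Erbb2 window the shorter core at 171 bases. The full cAMP response element is in 1.55% of windows and the AP-1 site in 6.75%. Of the 10 genes, 8 have a promoter in this table, all but Dusp4 and Spry4.

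Gene counts summed to 38765682 in the shallowest tumor and 65465755 in the deepest, and the ribosomal RNA locus took between 6.29% and 27.7% of them. Markers of luminal breast epithelium were present in every tumor, with a summed level between 2745 and 4439 CPM (counts scaled to a common library size with TMM) and none of 8 markers at 0. Skeletal muscle markers lay between 3.82 CPM and 820 CPM, highest in Hi_6. The levels of the inhibitors that moved most with such a measure were Dusp7 with endothelial markers (r = 0.510 over 20 tumors, whose summed level was 59.5 to 145 CPM), Spry4 with leukocyte markers (r = -0.503, 125 to 198 CPM), Spry2 with adipocyte markers (r = 0.462, 13.1 to 71.5 CPM), Spred2 with the ribosomal share (r = 0.468) and Dusp5 with that share (r = -0.457). These values are the largest over 7 marker lists, the ribosomal share and the total count, each set against the 10 inhibitors. No p was computed for them, so they are a description. Erbb2 had an r of -0.420 with basal and myoepithelial markers (32.7 to 85.7 CPM) and of -0.414 with skeletal muscle markers. Of these lists, 8 of 8 endothelial, 9 of 10 leukocyte and 6 of 6 adipocyte markers passed the filter, and no listed marker was at 0 in all tumors. The part of these cells in the results below was not tested unless said.

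Dusp6 was by far the most highly expressed of the 10 inhibitors. Per length, Dusp6 (ENSMUSG00000019960, chr10:99263231-99267488) ranged from 161 RPKM (reads scaled to gene length and to the total count) in Lo_6 through a median of 208 RPKM to 323 RPKM in Hi_7. This median exceeded that of 99.1% of the genes tested, and Dusp6 made up between 50.7% and 59.3% of the summed RPKM of the 10 genes. Dusp4 (chr8:34807297-34819894) followed, from 39.4 RPKM in Lo_7 through a median of 48.4 RPKM to 70.0 RPKM in Hi_7. Dusp6 exceeded Dusp4 in 20 of 20 tumors, and Dusp4 exceeded Spry2 in 20 of 20, with no overlap of the ranges at either step. The receptor gene Erbb2 (chr11:98412470-98437716) had a median of 37.6 RPKM, between those of Dusp4 and Spry2.

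The remaining genes lay close together. Spry2 (chr14:105891949-105896819) had a median of 25.5 RPKM and ranged from 21.3 to 33.8 RPKM, and it exceeded Spred1 in 19 of 20 tumors. Spred1 (chr2:117121374-117182279), Dusp7 (chr9:106368632-106375724) and Spry4 (chr18:38586268-38601268) had medians of 19.6, 18.4 and 18.03 RPKM. Neither the step from Spred1 to Dusp7 (10 of 20 tumors) nor that from Dusp7 to Spry4 (13 of 20) exceeded the spread between tumors. Spry4 exceeded Rasa1 in 18 of 20 tumors. Rasa1 (chr13:85214780-85289029) and Spry1 (chr3:37639947-37644598) both had a median of 14.6 RPKM, and Rasa1 was the higher in 11 of 20. Spred2 (chr11:19924375-20024026) and Dusp5 (chr19:53529109-53542431) were the lowest, with medians of 9.33 and 8.78 RPKM, and Spred2 was the higher in 13 of 20. Every inhibitor was well above its counting error, since the lowest count of any of them was 520 reads, for Dusp5 in Lo_2.

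**Figure D1:**
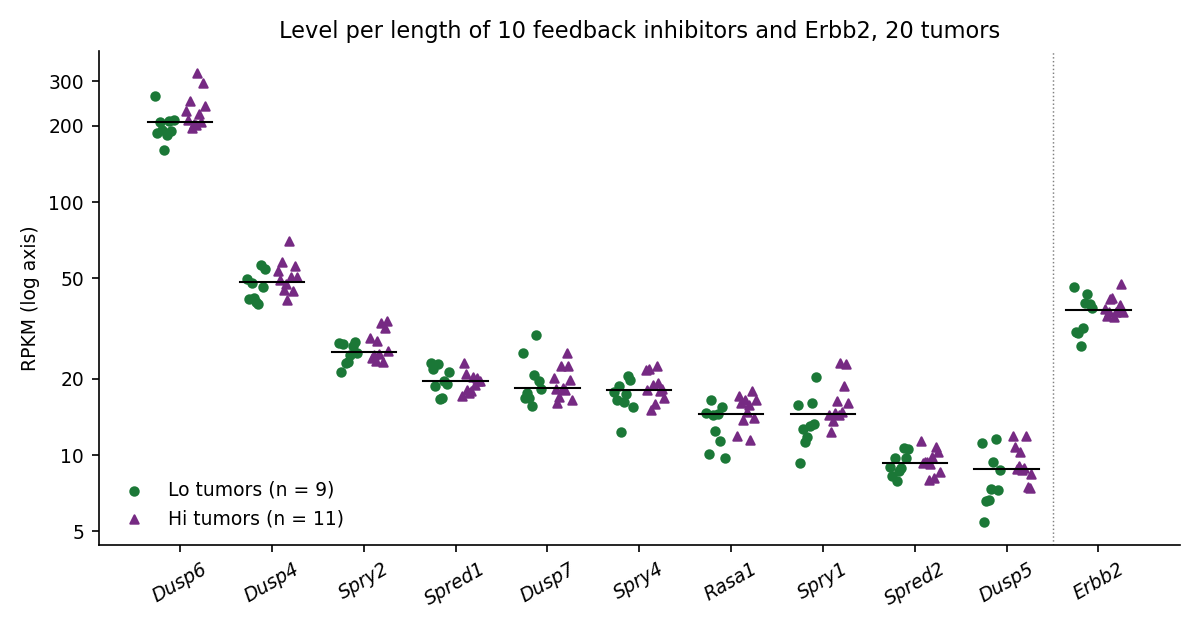
Level per length (RPKM, log axis) of the 10 inhibitors, ordered by their median, and of Erbb2 in each of 20 tumors, with Lo tumors as circles (n = 9), Hi tumors as triangles (n = 11) and the median of all 20 as a line. Dusp6 lies between 161 and 323 RPKM in every tumor, above all other genes shown, and Lo and Hi tumors overlap for every gene.

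Most of the inhibitors varied less between tumors than the median gene. They were not compared with genes of like level, and their median RPKM exceeded that of 69.2% (Dusp5) to 99.1% (Dusp6) of genes. The standard deviation (SD) of log2 CPM over the 20 tumors lay between 0.156 for Spred2 and 0.301 for Spry1, with a median of 0.191, against a median of 0.251 over all genes tested. Spry1 and Dusp5 (0.256) lay above that median, and the other 8 below it. The SD that read sampling alone gives was between 0.008 and 0.044 for these genes. The highest tumor had between 1.46 times (Spred2) and 2.16 times (Spry1) the CPM of the lowest. The genes of the cascade itself (20 genes from Egfr and Grb2 to Mapk3) had a median SD of 0.15, other inhibitors of Ras or MAP kinases 0.281 (18 genes), further ERK targets 0.328 (15 genes), and immediate-early genes 0.385 (12 genes). Among the last, Fos, part of the AP-1 factor, ranged from 11.4 to 173 RPKM (SD of log2 CPM 1.10), and its relative Fosb had an SD of 2.14. Both were named after their values were seen. The lists of other inhibitors and of ERK targets also hold genes of low level, such as Dusp10 and Gdf15, with medians of 0.214 and 0.159 RPKM.

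Of the phosphatases, Dusp6 had 499 CPM in its lowest tumor (Lo_7), a median of 586 CPM and 857 CPM in its highest (Hi_7). Hi_7 and Hi_10 (800 CPM) stood above the other 18 tumors, of which the highest had 678 CPM. Dusp4 ranged from 105 CPM in Lo_7 through a median of 132 CPM to 182 CPM in Hi_7, so that the same tumors were lowest and highest for both genes. Dusp5 ranged from 14.8 CPM in Lo_2 through 21.8 CPM to 29.8 CPM in Hi_8. Dusp7 ranged from 50.9 CPM in Hi_3 through 64.3 CPM to 93.0 CPM in Lo_8, and Hi_8, with 86.2 CPM, was its next tumor. Hi_8 and Lo_8 were thus among the highest 3 tumors for Dusp5 and for Dusp7, while neither was for Dusp4 or Dusp6.

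Spry1 ranged from 30.01 CPM in Lo_2 through a median of 41.7 CPM to 64.7 CPM in Hi_10, and 3 tumors (Hi_10, Hi_7 and Lo_11) lay above 63 CPM while the next had 50.5 CPM. Spry2 ranged from 45.5 CPM in Hi_2 through 53.8 CPM to 68.4 CPM in Hi_10, and Spry4 from 62.4 CPM in Lo_4 through 82.5 CPM to 98.2 CPM in Hi_7. Hi_7 was among the highest 3 tumors for 5 of the 10 genes, Dusp4, Dusp6, Spry1, Spry2 and Spry4. Lo_2 and Hi_2 were each among the lowest 3 for 4 genes. Spred1 ranged from 110 CPM in Hi_1 through 132 CPM to 172 CPM in Lo_4, and Spred2 from 36.0 CPM in Hi_5 through 43.2 CPM to 52.7 CPM in Lo_11. Rasa1 ranged from 76.8 CPM in Lo_8 through 109 CPM to 131 CPM in Lo_3. Small RNA genes lie within Spry4, and Ccnh overlaps Rasa1 as Mien1 overlaps Erbb2, so reads in the shared stretches are uncertain, since the strand setting of the count is not given in the sources used here.

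The first comparison set each inhibitor against Erbb2, to ask whether tumors with more of the receptor's RNA had more of the RNA of its inhibitors. None of the 10 inhibitors changed with Erbb2 at an adjusted p under 0.05. Erbb2 itself spanned 155 CPM (Lo_4) to 241 CPM (Hi_10), with a median of 196 CPM, a 1.55-fold range within which any relation had to show. With edgeR's quasi-likelihood test of the slope (the log2 change of a gene per log2 of Erbb2), 18 of 18882 genes (0.0953%) passed, 3 with a positive and 15 with a negative slope, and 0 of 10 inhibitors. At an unadjusted p under 0.05 there were 2 inhibitors, Spry1 and Spred1, where 15.5% of all genes had such a p. DESeq2 called 387 of the 14489 genes to which it gave an adjusted p, and 0 of 10 inhibitors. The count of all genes was not stable, since it was between 0 and 32 when 1 tumor at a time was left out, while the count of inhibitors was 0 each time.

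Spry1 had the steepest slope of the 10, 1.04 ± 0.364 (SE, n = 20) with a 95% interval from 0.27 to 1.80 (adjusted p = 0.177 with edgeR, unadjusted p = 0.0093). Pearson's r with Erbb2 was 0.540 over the 20 tumors (permutation p = 0.0138, 0.204 adjusted over all genes) and Spearman's rho was 0.595 (permutation p = 0.00689, adjusted 0.183). It was 0.545 within the Lo tumors and 0.557 within the Hi tumors, and 0.373 without Lo_4 and Hi_10, the tumors farthest from the median Erbb2. The slope without these 2 was 0.80 (unadjusted p = 0.132 with edgeR). In the plot of Spry1 against Erbb2, Hi_7 had much Spry1 at 182 CPM of Erbb2, under the median of Erbb2. Spred1 went the other way, with a slope of -0.45 ± 0.217 (SE, n = 20, adjusted p = 0.322 with edgeR) and an r of -0.424. Its interval ran from -0.91 to 0.01, although its unadjusted p was 0.0497 with edgeR. The intervals given here are somewhat wider than edgeR's test implies. The slope of Spred1 rested on Lo_4, the tumor with the least Erbb2 and the most Spred1. Without Lo_4 the slope was -0.21 (unadjusted p = 0.396 with edgeR), and without Lo_4 and Hi_10 it was -0.25 and r was -0.222.

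**Figure D2:**
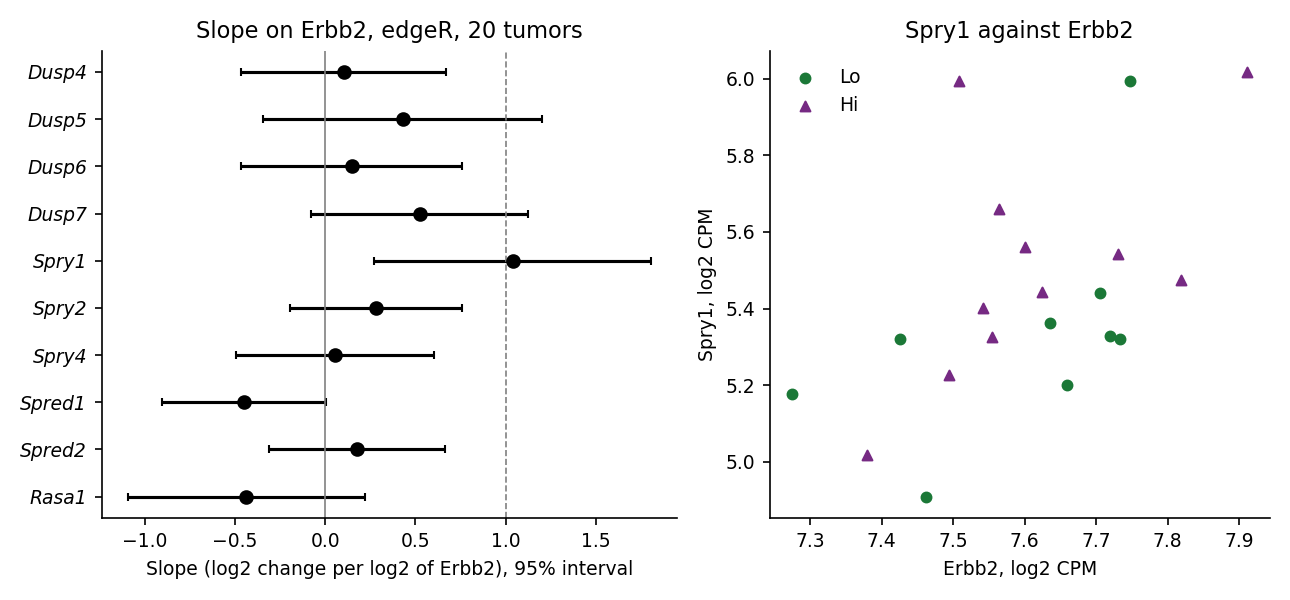
Left, slope of each inhibitor on Erbb2 (log2 change per log2 of Erbb2) with a 95% interval built from edgeR's SE over 20 tumors. Lines mark no change and proportional change. Right, log2 CPM of Spry1 against log2 CPM of Erbb2 per tumor, where Spry1 has a slope of 1.04 and an adjusted p of 0.177.

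As for Spred1, the interval of the slope held 0 for the other 8 inhibitors. For 6 of these 8 it left out proportional change, a slope of 1. The interval was -0.47 to 0.67 for Dusp4, -0.47 to 0.76 for Dusp6, -0.50 to 0.60 for Spry4, -0.19 to 0.76 for Spry2, -0.31 to 0.66 for Spred2 and -1.09 to 0.22 for Rasa1. For Dusp5 (-0.34 to 1.20) and Dusp7 (-0.08 to 1.13) the interval also held 1. The median slope of the 10 inhibitors was 0.16, and that of all genes 0.006. Without Hi_10, the tumor with the most Erbb2, the slope of Dusp6 turned from 0.15 to -0.21 and that of Dusp4 from 0.10 to -0.0067. Without Lo_4, the tumor with the least, that of Spry4 turned from 0.05 to -0.28.

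The count depended on the scale. With limma in place of edgeR and RPKM from the total count in place of TMM, 2492 of 18882 genes were called on log2(RPKM + 1). Of these, 2470 had a positive slope, and the median slope of all genes rose to 0.21. Spry1 (slope 1.01, adjusted p = 0.0170) and Dusp7 (slope 0.72, adjusted p = 0.0340) were then called, 2 of 10 inhibitors. On this scale the total count, ribosomal locus included, enters Erbb2 and every other gene alike. The test changed along with the scale, and limma was not run on TMM values. Which of these moved the count was not tested.

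The relation to Erbb2 was then allowed to differ between Lo and Hi tumors. None of 18882 genes (0%) passed edgeR's test of the interaction, 2.15% had an unadjusted p under 0.05, and no inhibitor was among these. Dusp5 had the largest difference, with an r of 0.688 with Erbb2 within the 9 Lo tumors and -0.159 within the 11 Hi tumors. The difference of the slopes, Hi minus Lo, was -1.34 ± 0.671 (SE, adjusted p = 0.9999 with edgeR, unadjusted p = 0.0589).

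Lo and Hi tumors were next compared directly, although the titles do not say what the labels mean. Erbb2 was at 194.6 ± 21.5 CPM in Lo tumors (SD, n = 9) and 196.6 ± 21.6 CPM in Hi tumors (SD, n = 11), a log2 difference of 0.01 ± 0.0723 (SE). None of 18883 genes (0%) passed edgeR's quasi-likelihood test and 1045 (5.53%) had an unadjusted p under 0.05, while DESeq2 called 1 gene, which was no inhibitor. Of the 10 inhibitors, 0 passed with either tool and 1 had an unadjusted p under 0.05. This was Spred1, at 141.3 ± 19.4 CPM in Lo (SD, n = 9) and 127.6 ± 8.49 CPM in Hi (SD, n = 11), a log2 difference of -0.15 ± 0.0683 (SE, adjusted p = 0.885 with edgeR). Spred1 ranged from 111 to 172 CPM in Lo and from 110 to 141 CPM in Hi, so the groups overlapped and the Lo tumors were the more spread. Its unadjusted p was 0.0419, and it was 0.113 without Lo_4. Spred1 lies on chromosome 2, whose expression level, described below, was highest in Lo tumors. For Spry1 the difference, Hi minus Lo, was 0.18 with a 95% interval from -0.09 to 0.44, for Dusp6 it was 0.14 (-0.05 to 0.32), and for Dusp4 it was 0.05 (-0.12 to 0.22). Single tumors moved these differences. That of Spry1 was 0.28 (unadjusted p = 0.0201 with edgeR) without Lo_11, the Lo tumor with the most Spry1, and 0.12 without Hi_10. Those of Dusp6 and Dusp4 were 0.08 and 0.0015 without Hi_7.

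The inhibitors were then set against each other. Over the 45 pairs, Pearson's r of log2 CPM had a median of 0.0717, with 26 pairs above 0, and 9 pairs had an unadjusted permutation p under 0.05, 7 of them positive. Over all genes tested, the median r with an inhibitor lay between -0.0209 (for Dusp4) and 0.0171 (for Spred2). An r of at least 0.5 in size was reached by 2.33% (for Spry4) to 10.9% (for Rasa1) of all genes. The share of all genes with such a permutation p was not computed, so the counts of pairs are a description. The 10 genes did not all move together. The positive pairs lay among Dusp4, Dusp6, Spry1, Spry2, Spry4 and Spred2, whereas Dusp5, Dusp7, Spred1 and Rasa1 had no positive pair at that permutation p. Dusp5 and Dusp7, whose highest tumors included Lo_8 and Hi_8, came nearest among these (r = 0.415, permutation p = 0.0683). In edgeR's fits, which are another test of the same pairs, Dusp7 had a slope of 0.35 on Dusp5 (unadjusted p = 0.0382, adjusted 0.641) and Dusp5 a slope of 0.51 on Dusp7 (unadjusted p = 0.0441, adjusted 0.353). The median r was 0.102 within Lo and 0.0524 within Hi tumors, and it was 0.299 on log2(RPKM + 1), where the total count enters both genes of a pair.

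**Figure D3:**
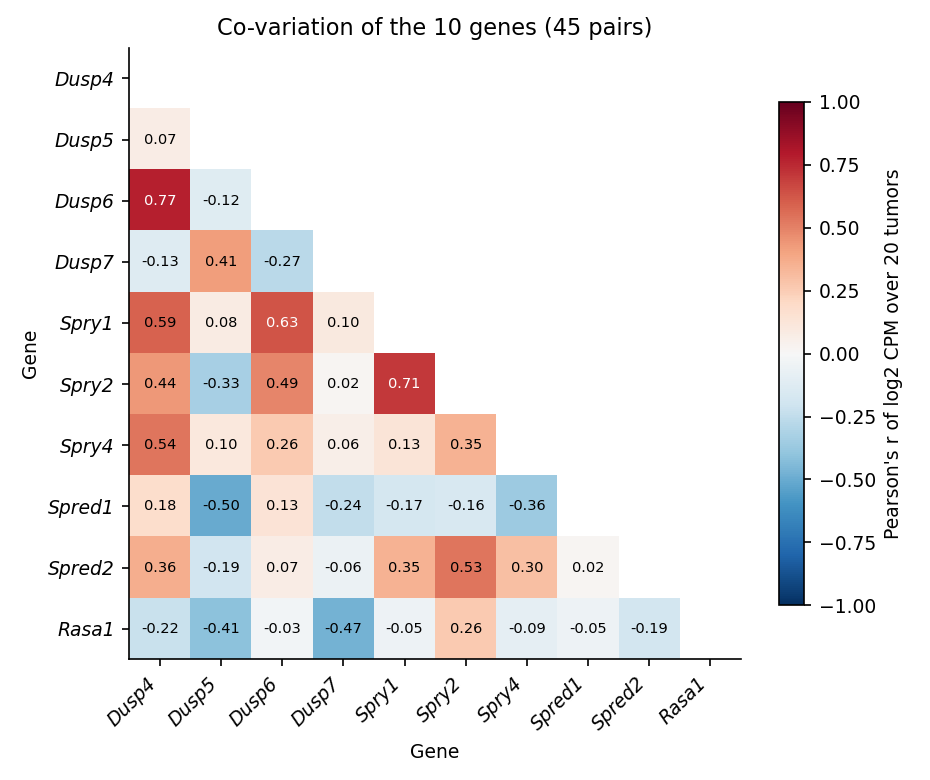
Pearson's r of log2 CPM over 20 tumors for each of the 45 pairs of inhibitors, printed in each square and coloured from -1 (blue) to 1 (red). The highest values are 0.77 for Dusp4 with Dusp6 and 0.71 for Spry1 with Spry2, and Dusp5, Dusp7, Spred1 and Rasa1 have pale or blue squares with most genes.

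The phosphatases Dusp4 and Dusp6 had the highest r, 0.774 over the 20 tumors (permutation p = 6e-05), with a rho of 0.668 (permutation p = 0.00154). It was 0.517 within the Lo tumors, 0.906 within the Hi tumors and 0.583 without the 2 tumors most distant from the Dusp4 median (Hi_7 and Lo_7). With any 1 tumor left out it stayed at or above 0.657. In edgeR's fit over all genes, Dusp6 had a slope of 0.83 ± 0.173 (SE, n = 20) on Dusp4 with an adjusted p of 0.0977, and Dusp4 a slope of 0.73 ± 0.148 on Dusp6 with an adjusted p of 0.119, so the pair did not pass the test.

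Spry1 and Spry2 had an r of 0.705 (permutation p = 0.00051) and a rho of 0.558 (permutation p = 0.0123), 0.405 within Lo and 0.905 within Hi tumors, and at least 0.626 with 1 tumor left out. Leaving out the 2 tumors most distant from the Spry1 median (Hi_10 and Lo_11), r was 0.669, with Hi_7 kept. Their adjusted p in edgeR's fits were 0.206 (slope 1.37 of Spry1 on Spry2) and 0.245 (slope 0.37 of Spry2 on Spry1). Spry1 also went with Dusp6 (r = 0.627). Without the 2 tumors most distant from the Dusp6 median, Hi_7 and Hi_10, r was 0.251, so this relation rested on those tumors. The same held for Dusp6 with Spry2, at 0.485 over all tumors and -0.00416 without those 2. Spry1 with Spry2 and Dusp4 with Dusp6 were not recomputed without both Hi_7 and Hi_10, so these checks are not alike. Dusp4 went with Spry1 (r = 0.592, and 0.439 without its 2 farthest tumors) and Spry4 (r = 0.537, then 0.453), and Spry2 with Spred2 (r = 0.534, then 0.602).

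**Figure D4:**
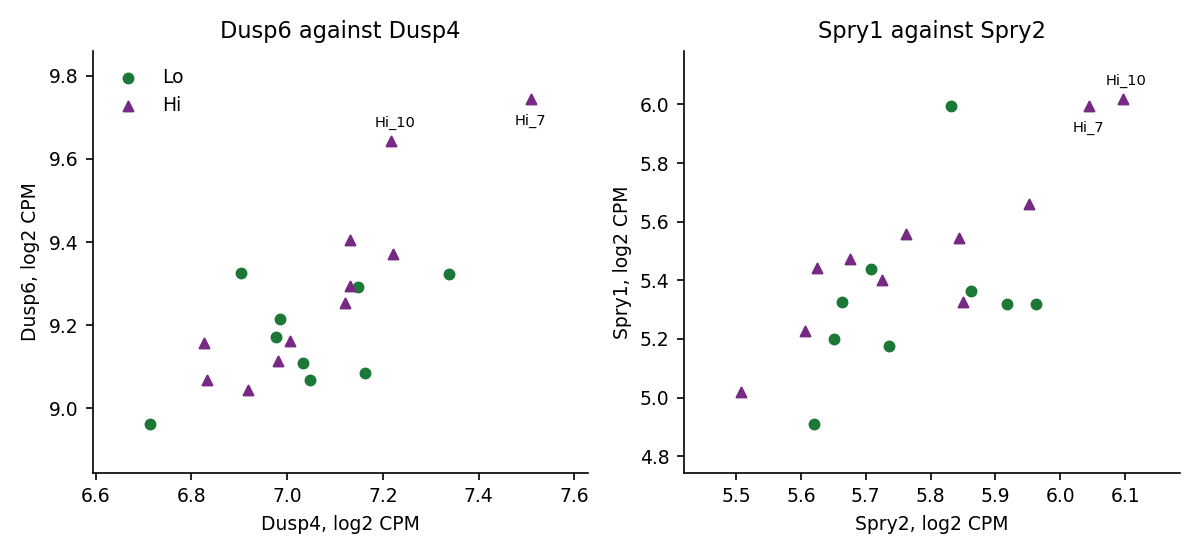
Left, log2 CPM of Dusp6 against Dusp4, and right, of Spry1 against Spry2, in 9 Lo (circles) and 11 Hi (triangles) tumors. Hi_7 and Hi_10 lie at the upper right of both panels, where r over the 20 tumors is 0.774 and 0.705.

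The negative pairs at a permutation p under 0.05 were Dusp5 with Spred1 (r = -0.504, permutation p = 0.0231, adjusted p in edgeR's fits 0.260 and 0.619) and Dusp7 with Rasa1 (r = -0.473, permutation p = 0.0345, adjusted p 0.204 and 0.318). Leaving out the 2 tumors most distant from the median of the first gene, r was -0.404 and -0.152, so the second of these pairs rested on such tumors. Dusp5 with Rasa1 had an r of -0.409 (permutation p = 0.0737) and a rho of -0.448 (permutation p = 0.0489), and an r of -0.661 without the 2 tumors most distant from the Dusp5 median. Its unadjusted p in edgeR's fits were 0.047 and 0.0316 (adjusted 0.652 and 0.247). Dusp5 and Dusp6, which remove the same phosphates in the nucleus and the cytoplasm, had an r of -0.122.

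With each inhibitor in turn as the covariate, edgeR called 0 of the other 9 inhibitors. It called 0 of 18882 genes (0%) for Dusp4, Dusp5, Dusp6, Spry2, Spry4 and Spred1, 2 genes (0.0106%) for Dusp7 and for Spry1, 151 genes (0.8%) for Spred2 and 314 genes (1.66%) for Rasa1. At an unadjusted p under 0.05, 3 of 9 inhibitors had a slope on Dusp4, where 10.9% of all genes did, 3 on Dusp6 (6.72%), 3 on Spry1 (9.15%), 4 on Spry2 (7.26%), 1 on Spry4 (5.38%) and 1 on Spred2 (13%), and all of these slopes were positive. Of 3 on Dusp5 (7.62%), 1 was positive and 2 were negative, and of 2 on Dusp7 (13.7%), 1 was positive and 1 negative. Those on Rasa1 (2, beside 16.4%) and on Spred1 (1, beside 14.2%) were negative.

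Beyond the inhibitors, the gene most like each of them was sought among 15391 genes, by r over the same 20 tumors. For Dusp4 it was Tnfaip3 (r = 0.842), which encodes the NF-kappaB inhibitor A20, followed by Baiap2l1 and Gm14290. For Dusp6 it was Adam9 (0.794), a membrane metalloprotease, then Mrps6 (0.786) and Dusp4 itself (0.774). For Spry1 it was Phlda1 (0.818), itself an ERK target, then Wbp2 and Slc22a15. For Dusp7 it was Keap1 (0.840), the sensor that restrains Nrf2, then Sipa1 and Jag2. For Dusp5 it was Ephb6 (0.772), a receptor of the Eph family, then Tprn and Mfge8.

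Spry2 was most like Ptpn21 (0.790), a tyrosine phosphatase, then Scpep1 and Ube3b, and Spry4 most like Arl10 (0.715), then Zfp438 and Zfp668. Spred1 was most like Itch (0.836), a ubiquitin ligase on the same chromosome 2, then RP23-349K15.2 and Top1. Spred2 was most like Hs3st3b1 (0.811), a heparan sulfate sulfotransferase on the same chromosome 11, then 3110057O12Rik and Atp8b1. Rasa1 was most like Zfp820 (0.880), then Csgalnact2 and Mid2. Dusp6 with Dusp4 was the only case of 30 in which another of the 10 inhibitors was named. These values are the highest of many and describe these tumors.

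The other genes of the pathway were read in lists. Of 20 genes of the cascade and its activators, 18 tested other inhibitors, 15 ERK targets and 12 immediate-early genes, 0 passed edgeR's test against Erbb2, Dusp4, Dusp6, Spry1 or Spry2 or between Lo and Hi. Only Erbb2 and Dusp6 were planned for these lists. Dusp4, Spry1, Spry2 and the Lo and Hi labels were added to that plan, and the lists were not counted against the other inhibitors. Against Dusp4, 8 of the 15 ERK targets had an unadjusted p under 0.05 with a positive slope and 1 (Epha2) with a negative slope, where 10.9% of all genes had such a p, and their median slope was 0.41 against -0.02 over all genes. Against Dusp6 there were 3 of 15, all positive, beside 6.72% of all genes, and against Spry1 4 of 15, beside 9.15%. Against Spry2, 2 of 15 had a positive and 1 a negative slope at such a p, beside 7.26%. Against Erbb2 there was 1 of 15 (Phlda1), beside 15.5%. Of the immediate-early genes, 1 of 12 (Nr4a1) went with Dusp4, and none with Dusp6, Spry1 or Erbb2.

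The genes of these lists with the smallest p, named after their values were seen, did not pass the adjusted threshold. Rgs2, a regulator of G protein signaling, had a slope of 1.86 ± 0.399 (SE) on Dusp4 (adjusted p = 0.103 with edgeR), Il17rd, the ERK inhibitor also called Sef, had a slope of 1.07 ± 0.262 (adjusted p = 0.157) and Ier3 had a slope of 0.99 ± 0.251 (adjusted p = 0.170). Against Spry1 the smallest were those of the adaptor Shc1 (slope 0.78) and of Phlda1 (slope 0.47), both at an adjusted p of 0.0962. Against Erbb2, Spred3, the family member of Spred1 and Spred2, had a slope of 1.37 ± 0.319 (SE, adjusted p = 0.0904 with edgeR), with 1.60 to 4.03 RPKM. The kinase gene Araf had a slope of 0.73 (adjusted p = 0.163 with edgeR).

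Since genes near each other can rise or fall with their chromosome, each inhibitor was compared with the expression level of its own chromosome. This level was the median over its genes of log2 CPM relative to the median tumor, minus that of all autosomes. In the test over all genes, a gene with a mean CPM of 5 or more was itself part of that level. This comparison was added after the data were seen, and it reads expression, not DNA copies. Of 18878 genes, 2269 (12%) went with their own chromosome at a permutation p, adjusted over all genes, under 0.05, and of the inhibitors 1 did, Rasa1, a share near that of all genes.

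Rasa1 had an r of 0.599 with the level of chromosome 13 (permutation p = 0.00517, adjusted 0.0449), where that level included Rasa1 itself. With Rasa1 left out of the level (412 genes), r was also 0.599 (permutation p = 0.00523), with no adjusted p computed. On that level rho was 0.650, and r was 0.715 within Lo and 0.463 within Hi tumors, and 0.638 without the 2 farthest tumors. Lo_3 had the highest level of chromosome 13 and the most Rasa1, while Hi_10 had the lowest level of that chromosome and 99.3 CPM of Rasa1. The adjusted p of 0.0449 lay just under the threshold, and it exceeded it in 19 of 20 cases when 1 tumor was left out. In these cases r was from 0.465 without Lo_8 to 0.644 without Hi_10, the case that passed. Without Lo_8 the adjusted p of Rasa1 was 0.207 (permutation test), and 1 other inhibitor passed. Spred1 with chromosome 2 (r = 0.490, adjusted permutation p = 0.133) and Spry1 with chromosome 3 (r = 0.489, adjusted permutation p = 0.143) followed. Spred2 with chromosome 11 had an r of -0.0261 (adjusted permutation p = 0.964). With Spry1 left out of the level, its r was 0.785 within Lo and 0.0539 within Hi tumors. The highest level of chromosome 3 was in Lo_11, 1 of the 3 tumors with the most Spry1. The level of chromosome 2, with Spred1 left out, was highest in Lo_2 (0.226), Lo_8 (0.200), Lo_11 (0.166) and Lo_1 (0.119). Among Hi tumors it was highest in Hi_2 (0.037), and it was 0.011 in Lo_4, the tumor with the most Spred1. On that level the r of Spred1 was 0.350 within Lo and 0.371 within Hi tumors. Its part in the difference of Spred1 between Lo and Hi was not tested.

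**Figure D5:**
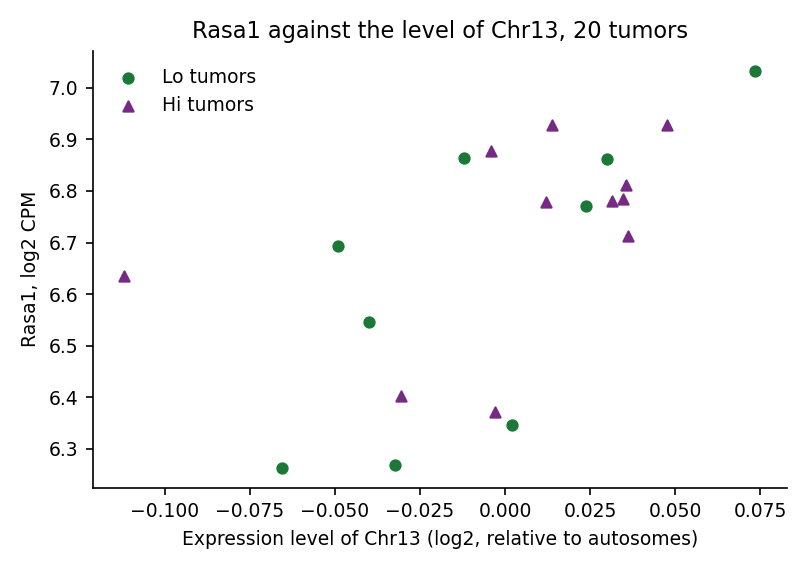
Log2 CPM of Rasa1 against the expression level of chromosome 13 (log2, relative to all autosomes) in 9 Lo and 11 Hi tumors. Lo_3 lies at the upper right, Hi_10 at the far left, and r over the 20 tumors is 0.599.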

How the data were processed

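Paired-end RNAseq reads of 20 tumors were cut to 100 bases by the authors before alignment with TopHat (mm10). The submitters' processing notes list TopHat2 2.0.12 and featureCounts 1.4.4, and the annotation release and strand setting are not given in the sources used here. The deposited values are unnormalized gene counts, with a column for each tumor and no pooling, beside gene coordinates and lengths.

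CPM used edgeR 4.0.16 with TMM (prior count 2 on the log2 scale), and RPKM was computed from counts, listed length and total count. Genes passing filterByExpr were tested by quasi-likelihood in edgeR, with p-values adjusted over all of them (Benjamini-Hochberg, 0.05), with slopes on centred log2 CPM of Erbb2 (itself left out) or of 1 inhibitor. The SE of a slope is its size divided by the square root of F. DESeq2 1.42.0 and limma 3.58.1 were alternatives (R 4.3.3). Permutation tests were two-sided with 100000 permutations (Python 3.11.15, numpy 2.4.6, scipy 1.17.1). Each tumor came from its own mouse, and p-values measure the spread between tumors.

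The inhibitors, the gene lists and the tests were chosen with earlier results of these data known. Besides the inhibitors and Erbb2, the 3 genes most like each inhibitor (mean CPM of at least 1) and listed genes past the threshold were to be named. Chromosome levels used genes whose mean CPM was 5 or more. Scripts were tested on simulated data. Totals of 38765682 to 65465755 counts limit precision by counting error only. Numbers in the titles were not treated as pairs, since same-numbered tumors deviated together (r over 0.1) for 3 of 9 numbers. Allele counts are not analysed here, and the values of 1 listed gene are not reported here.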

Additional observations from a re-analysis of the deposited data

Results flagged for a closer look

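Dusp7 was at 92.95 CPM in Lo_8, farther from the other Lo tumors than Dixon's limit for 9 values allows (gap over range 0.592), with the next Lo tumor at 74.7 CPM. Hi_8 had 86.2 CPM. Spry1 was at 63.7 CPM in Lo_11 (gap over range 0.604), with the next Lo tumor at 43.4 CPM, and the Hi tumors Hi_7 and Hi_10 were as high. For 11 genes the Lo tumors were examined in this way, of which chance flags about 1 in 20.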

How the results depend on the processing

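The count of inhibitors that changed with Erbb2 was 0 without any 1 tumor. It was also 0 in every alternative except limma on log2(RPKM + 1) and on log2(RPKM + 0.1). There it was 2 of 10 (Spry1 and Dusp7), beside 2492 and 2502 of 18882 genes. Under log2(RPKM + 0.1) the slopes of Spry1 and Dusp7 were 1.04 and 0.74 (adjusted p = 0.0159 and 0.0331), and the median slope of all genes was 0.32. At an unadjusted p under 0.05 there was 1 inhibitor in each of the other alternatives, Spry1, or Dusp7 (slope 0.88) without the 2 tumors farthest from the median Erbb2. The count of all genes moved from 18 to 0 with RLE size factors, without the ribosomal RNA locus, with the Lo or Hi label or the fibroblast markers added, and without the 2 tumors farthest from the median Erbb2. It was 387 with DESeq2 (157 positive, 230 negative), 9 with no filter (5 positive, 4 negative), 11 with the level of chromosome 11 added, 2492 and 2502 with limma on RPKM, and between 0 and 32 with 1 tumor left out (21 without Lo_6, 32 without Lo_11, 9 without Hi_2, 14 without Hi_8, 9 without Hi_9, otherwise 0). The cause was not tested. No alternative was a test of depth, and the lowest count of an inhibitor was 520.

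Without the 2 tumors farthest from the median Erbb2, the slopes of Dusp4, Dusp6 and Spry4 turned to -0.10, -0.31 and -0.33. That of Spry4 turned to -0.0036 with the level of chromosome 11 added, and that of Rasa1 to 0.0612 and 0.065 under the RPKM scales. With 1 tumor left out, the slope of Dusp4 lay between -0.0067 and 0.22, of Dusp6 between -0.21 and 0.28, and of Spry4 between -0.28 and 0.18.

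Between Lo and Hi the count of inhibitors was 0 in every alternative. That of all genes was 0 except 1 with DESeq2 and 1 with no filter, and 0 without any 1 tumor. The title number as a replicate block (18 tumors) called 0 genes, with 872 at an unadjusted p under 0.05 against 954 in the same 18 tumors with no block, which was added after the data were seen. With the block, Dusp7 rather than Spred1 had an unadjusted p under 0.05 (difference -0.15, p = 0.014 with edgeR, and p = 0.0885 for Spred1). Spred1 also had an unadjusted p over 0.05 with RLE, DESeq2 and no filter (0.0518, 0.0536 and 0.0528). The correlation of same-numbered tumors was -0.418 to 0.208. The log2 difference of Spry2 turned to -0.0229 with the block and to -0.0185 without it in these 18 tumors. With 1 tumor left out it was -0.0098 to 0.0498, and that of Spry4 was -0.0118 to 0.0563. No pair of inhibitors passed both fits, with or without the label. The median r over pairs was 0.299 on log2(RPKM + 1), and 0.0134 to 0.108 with 1 tumor left out. Without the ribosomal RNA locus in the total, median RPKM rose by more than 1 SD for 7 of 10 inhibitors, to 57.0 for Dusp4, 22.4 for Dusp7, 30.6 for Spry2, 21.2 for Spry4, 22.9 for Spred1, 11.1 for Spred2 and 17.6 for Rasa1.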
